A study of Mus musculus with 2 samples.

Results

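Uninjured spinal cord microglia without a single transcript of the chemokine gene Ccl4 made up 161 of the 604 uninjured cells that held at least 1500 unique molecular identifiers (UMIs, each standing for 1 captured mRNA molecule), or 26.7%. They were chosen by a count of 0 Ccl4 UMIs, at least 1500 UMIs in total and less than 1% of UMIs from Apoe, among 695 uninjured cells kept of 705 barcodes (1272 kept cells in both libraries). The comparison cells were the other 443 uninjured cells with at least 1500 UMIs. Of these, 400 held Ccl4 and also met the Apoe limit, so that they differed from the members by the Ccl4 rule alone, and 43 had at least 1% Apoe.

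Both libraries, the control included, came from C57BL/6J mice carrying Cx3cr1-CreER::Rosa26-tdTomato. At postnatal week 4 each animal had 4-hydroxytamoxifen injected 2 times, 1 mg per injection, so that any cell then active for Cx3cr1, the receptor of fractalkine, was left with a lasting tdTomato label whether or not it was a microglial cell. The spinal cord was collected after 4 more weeks, incubated with collagenase (2 mg/ml, 37 °C, 1 h), and its tdTomato-positive cells went into 10x Chromium 3′ version 2 libraries made with 10 PCR cycles. There was 1 library from uninjured cord of matched age and 1 from cord 5 days after lysolecithin, a lipid that strips myelin, with 2500 sorted cells each and 705 and 580 recovered. How many animals were pooled, and of which sex, is not stated. With 1 library per condition no difference has a replicate check, and every interval below covers counting error only.

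Ccl4 (MIP-1β) and its neighbour Ccl3 (MIP-1α) are small secreted CC chemokines that attract other immune cells. Microglia switch both on quickly when stimulated, largely through the transcription factor NF-κB together with AP-1 factors such as Fos and Jun. Warm enzymatic digestion of tissue is itself known to induce such early response genes in microglia, whereas P2ry12, P2ry13, Crybb1 and Cst3 are typical of microglia in undisturbed tissue.

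In the GENCODE annotation of GRCm38, the protein-coding genes Ccl3 (ENSMUSG00000000982, minus strand, chromosome 11, bases 83647844 to 83649355) and Ccl4 (ENSMUSG00000018930, plus strand, bases 83662584 to 83664683) lie side by side. The 250 bases before the RefSeq start sites (GRCm38.p6) of 3 genes are printed 5′ to 3′ because the results turn on them: Ccl3, the gene whose counts followed Ccl4 most closely; Cxcl2, the next chemokine among the lower genes; and P2ry12, a marker with a higher level in the members. Capitals mark matches to the NF-κB motif known as kappa-B, searched on both strands.
Ccl3 upstream (chr11:83649379-83649628, minus strand): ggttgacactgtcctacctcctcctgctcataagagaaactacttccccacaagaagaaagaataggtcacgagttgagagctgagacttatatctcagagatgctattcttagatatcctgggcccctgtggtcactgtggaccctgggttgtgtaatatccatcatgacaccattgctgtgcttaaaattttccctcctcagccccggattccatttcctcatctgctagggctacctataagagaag
Cxcl2 upstream (chr5:90903649-90903898, plus strand): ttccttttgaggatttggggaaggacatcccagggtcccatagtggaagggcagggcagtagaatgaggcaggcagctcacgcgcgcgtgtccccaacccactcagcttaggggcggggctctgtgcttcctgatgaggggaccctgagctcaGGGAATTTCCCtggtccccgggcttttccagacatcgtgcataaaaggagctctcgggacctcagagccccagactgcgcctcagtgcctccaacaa
P2ry12 upstream (chr3:59262986-59263235, minus strand): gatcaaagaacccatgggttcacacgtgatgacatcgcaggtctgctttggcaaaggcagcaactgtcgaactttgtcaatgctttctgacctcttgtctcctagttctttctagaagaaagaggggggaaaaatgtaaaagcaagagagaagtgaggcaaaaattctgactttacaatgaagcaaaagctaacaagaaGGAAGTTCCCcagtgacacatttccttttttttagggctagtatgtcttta
The Cxcl2 window held 2 overlapping kappa-B matches, 1 on each strand, from 97 and 96 bases before the start (positions -97 and -96). P2ry12 held 1 match on the other strand from position -51, and the letters of the motif were not in the Ccl3 window. The same motif was found in 7.25% of 32851 promoter windows of this length. The AP-1 motif TGANTCA, found in 6.75% of them, was in none of the 3 windows. Of 8 genes looked up, 5 were matched in the RefSeq table (Ccl4, Cd83 and Selplg were not). Among the matched genes not printed, the Nfkbia window held 1 kappa-B match, from position -29, and the Cst3 window 0. Neither held the AP-1 motif. These matches are descriptions of the letters and not sites of binding.

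The label of microglia was checked against markers. All 10 microglial markers were detected in the members, and their summed level was 106222 CPM (UMIs of the pooled cells, scaled to a total of 1000000) against 92540 CPM in the other cells. Cst3 alone made up 82698 and 71030 CPM of these levels, so the sum mostly follows Cst3. Per cell the sum ran from 81.7 to 2079 UMIs per 10000, with a median of 1020. All 8 neutrophil markers and all 7 T or NK cell markers that the files list were at 0 in the members. Of 10 border-associated macrophage markers, 6 had a UMI (101.8 CPM in sum against 162.1 CPM in the others), while Cd163, Lyve1, F13a1 and Cd209f were at 0, and of 10 monocyte markers 7 were at 0, among them Ly6c2, Plac8 and Chil3. Oligodendrocyte markers summed to 241.8 CPM in the members and 223.4 CPM in the others, and endothelial markers to 235.4 and 98.8 CPM. Under a rule of at least 3 UMIs from at least 2 markers of another type, 10 of 161 members stood out (7 oligodendrocyte, 2 endothelial, 1 neuron) against 30 of 443 others. Among members, 1 cell with endothelial, mural or oligodendrocyte precursor markers had under 5 P2ry12 UMIs per 10000.

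The selecting values are given as a description. The 443 other cells held 6362 Ccl4 UMIs, up to 193 in a cell, or 4.53% of its UMIs. The pooled 0 in 471521 member UMIs was fixed by the rule, so it sets no limit on the Ccl4 level of the members. In a single member of median depth a count of 0 allows 1025 CPM, so a modest Ccl4 level in a member was not detectable. Just outside the Ccl4 limit, 67 low-Apoe cells had 1 Ccl4 UMI, 45 had 2 and 30 had 3. The highest member Apoe share was 0.95% and the lowest among cells at 0 Ccl4 that missed the limit was 1.16%. The shallowest member had 1514 UMIs, and the deepest cell that missed only the depth limit had 1491.

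Depth and the zero moved together. Members had a median of 2928 UMIs (1514 to 5249) and the other cells 3307. Among low-Apoe cells, 45.3% were at 0 Ccl4 between 1500 and 2000 UMIs (exact 95% interval 32.8 to 58.3%), 42.5% between 2000 and 2500, 27.0% between 2500 and 3000, 25% between 3000 and 4000, and 18.6% (11.9 to 27.0%) from 4000 UMIs. When the 400 Ccl4-positive low-Apoe cells were thinned to 1500 UMIs each, by exact calculation, 12.6% of them were expected at 0. Thinned in the same way, members showed a median of 773 genes and the others 775, so gene complexity differed little once depth was equal. Mitochondrial UMIs were 2.13% against 1.99%, and ribosomal protein UMIs 11.8% against 12.6%. Transcripts of Y-linked genes were seen in 37.9% of members and 37.7% of others.

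**Figure D1:**
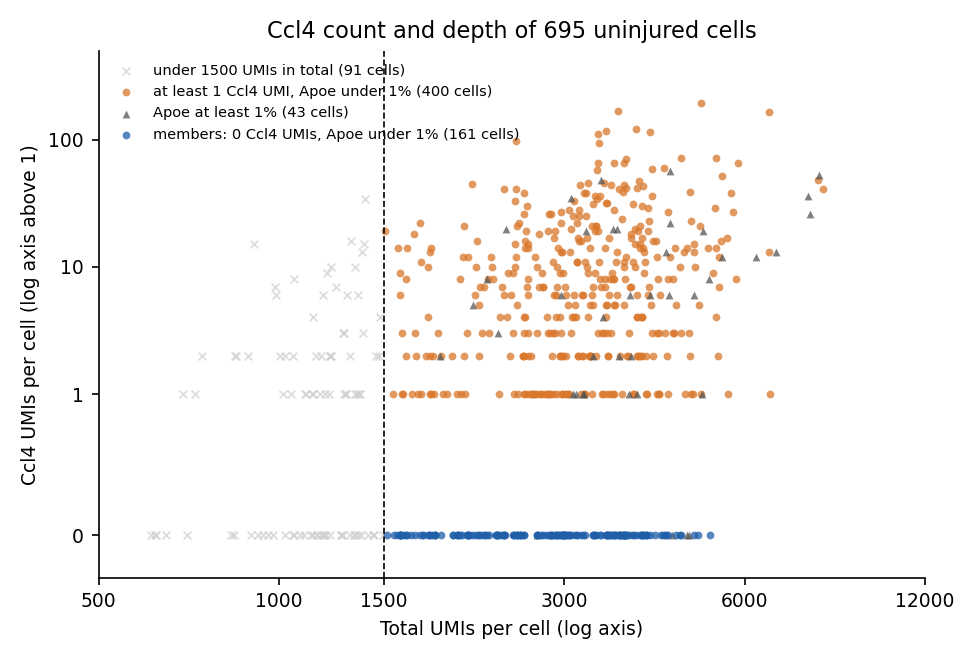
Ccl4 UMIs (vertical, log axis above 1) against total UMIs (horizontal, log axis) for 695 kept uninjured cells, 1 point per cell. The 161 members (blue) lie on the line of 0 to the right of 1500 UMIs and end at 5249 UMIs, whereas the 400 Ccl4-positive low-Apoe cells (orange) reach 8105 UMIs and 193 Ccl4 UMIs.

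Outside the Ccl4 and Apoe counts that chose them, members were close to the other microglia. Of 2530 genes with at least 100 UMIs over both groups, 94.8% lay within 1.5-fold. None was at least 2-fold higher in the members (0% of genes), and 20 were at least 2-fold lower (0.791%), Ccl4 and Apoe included. Against the 400 Ccl4-positive low-Apoe cells, 14 of 2356 measured genes were at least 2-fold lower (0.594%), and Commd7 alone was at least 2-fold higher (0.0424%). The 14 were Ccl4, Spp1, Cd74, H2-Ab1, Ccl3, Cxcl2, 1810058I24Rik, Crem, Hsph1, Rgs1, Bach1, Adm, Tnfsf9 and Il1b. The median log2 ratio over all measured genes was 0.01 against the others and 0.00 against the Ccl4-positive cells. The same cells and the same counts chose the members, so these ratios describe the groups and test nothing.

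Among the chemokine ligands, Ccl3 stood lowest. Per cell, Ccl3 ran from 0 through a median of 0 to 47.2 UMIs per 10000 in the members, and from 0 through 6.32 to 190.9 in the Ccl4-positive low-Apoe cells. The ranges overlapped, and the highest Ccl4-positive cells lay far above every member. Pooled, Ccl3 was 460.2 CPM in the members, 1832 CPM in the others and 1858 CPM in the Ccl4-positive cells, a log2 ratio of -1.99 (95% interval -2.20 to -1.79) and -2.01 (-2.22 to -1.81). At least 1 Ccl3 UMI was found in 71 of 161 members (44.1%, 36.3 to 52.1%) and in 74.0% (69.4 to 78.2%) of Ccl4-positive cells, and at 1500 UMIs per cell the shares were 30.9% and 59.7%. A share in cells that should lack Ccl3 could not be had, since only 2 cells carried endothelial, mural or oligodendrocyte precursor markers with few P2ry12 UMIs. Their median depth was 1631.5 UMIs. Of these cells, 1 was a member and the other held a Ccl4 UMI.

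The other CC chemokines were closer. Ccl12, a monocyte chemoattractant of the mouse, was 337.2 CPM in the members against 519.9 CPM in the others (log2 -0.62, -0.88 to -0.38), and Ccl9 254.5 against 324.2 CPM (-0.35, -0.65 to -0.06). Ccl2, the main ligand of Ccr2, did not differ by more than counting error, with 627.8 CPM in members and 668.2 CPM in others (log2 -0.09, -0.28 to 0.10). Ccl2 per cell ran from 0 through 2.17 to 93.3 UMIs per 10000 in members and from 0 through 2.93 to 107.4 in others, so the groups covered nearly the same range. All 5 measured CC chemokines of a list of 10 had ratios below 0 (median log2 -0.35), 3 of them with intervals below 0, as had 6.72% of all 2530 genes.

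Cytokines and CXC chemokines formed the group with the lowest median apart from MHC class II. Of 23 listed genes 11 were measured, with a median log2 ratio of -0.55, 7 intervals below 0 (6.72% of all genes) and 3 genes at least 2-fold lower. Cxcl2, a neutrophil attractant, was seen in 19 members (11.8%) and 119 others (26.9%), at 188.8 against 617.5 CPM (log2 -1.71, -2.04 to -1.40). Its member UMIs sat in few cells, the 10 highest holding 89.9% of them. Il1b was 59.4 against 174.0 CPM (log2 -1.55, -2.17 to -0.99) and rested on 28 member UMIs. The alarm cytokines Tnf (341.4 against 492.9 CPM, log2 -0.53, -0.78 to -0.28) and Il1a (311.8 against 457.3 CPM, log2 -0.55, -0.82 to -0.29) were lower by about the same ratio. Tnfsf9, the ligand of the costimulatory receptor 4-1BB, was at log2 -1.15 with 24 member UMIs, and the membrane-bound chemokine Cxcl16 at -0.93.

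The NF-κB list covers subunits, inhibitors and known targets. Of its 17 measured members (25 listed), 16 had ratios below 0, 8 with intervals below 0 (6.72% of all genes), and the median log2 ratio was -0.38; none was at least 2-fold lower. Cd83, a surface protein of activated antigen-presenting cells, ran per cell from 0 through 3.39 to 39.5 UMIs per 10000 in members and from 0 through 6.19 to 77.3 in others. Pooled, it was 509.0 against 936.4 CPM (log2 -0.88, -1.08 to -0.68). The survival gene Bcl2a1b was at -0.82, the deubiquitinase Tnfaip3 at -0.79, and the nuclear inhibitor homologue Nfkbiz at -0.52 (-0.83 to -0.22). Bcl2a1b and its relative Bcl2a1d are near-identical copies, so the split of their reads is uncertain. Nfkbia, the IκBα inhibitor and the most abundant of these 5, was closest, at 2155 against 2450 CPM (log2 -0.19, -0.29 to -0.08).

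Immediate early genes were mixed. Over 20 measured members of 28 the median log2 ratio was -0.13, with 7 intervals below 0 (6.72% of all genes) and 1 above (5.85%). Fos was 1919 against 1981 CPM (log2 -0.05, -0.15 to 0.06), Jun 1826 against 1884 CPM (-0.05, -0.16 to 0.07) and Egr1 702.0 against 717.6 CPM (-0.03, -0.21 to 0.15), differences within counting error. Junb, another AP-1 subunit, was lower at 4670 against 5590 CPM (log2 -0.26, -0.33 to -0.19), as were Atf3 (-0.31), Nr4a1 (-0.64) and the anti-apoptotic Mcl1 (-0.64). The flow-induced factor Klf2 was the one with an interval above 0 (0.47, 0.04 to 0.88). Heat shock chaperones had a median of -0.02 over 11 genes. Hspa1a (Hsp70), though, was 1864 against 2275 CPM (log2 -0.29, -0.40 to -0.18), and Hsph1 was at -1.20 on 13 member UMIs.

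Homeostatic genes leaned the other way, by small ratios. Of 25 measured of 26 listed, 24 had ratios above 0, 13 with intervals above 0 (5.85% of all genes) and none with an interval below, and the median log2 ratio was 0.18. Against the Ccl4-positive low-Apoe cells the median was 0.15 and 8 of 25 had intervals above 0 (4.33% of all genes). Cst3, the protease inhibitor cystatin C and the most abundant of the 4 markers, ran from 69.1 through 761 to 1891 UMIs per 10000 in members and from 35.9 through 713 to 1511 in others. Pooled, it was 82698 against 71030 CPM (log2 0.22, 0.20 to 0.24). P2ry12, the ADP receptor that steers microglial processes, was 3665 against 3056 CPM (log2 0.26, 0.18 to 0.34), and Selplg, the selectin ligand PSGL-1, 3423 against 2747 CPM (0.32, 0.23 to 0.40). P2ry13, another ADP receptor (513.2 against 475.1 CPM, 0.11, -0.10 to 0.32), and Crybb1, a crystallin that marks microglia (358.4 against 323.6 CPM, 0.15, -0.11 to 0.40), did not differ beyond counting error. Cx3cr1, the gene that drove the label, was at 0.09 (-0.09 to 0.28) and the lectin Siglech at 0.00 (-0.19 to 0.19). Scaling by TMM or by DESeq2 size factors would take 0.07 off each of these log2 ratios, which leaves the homeostatic median above 0.

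**Figure D2:**
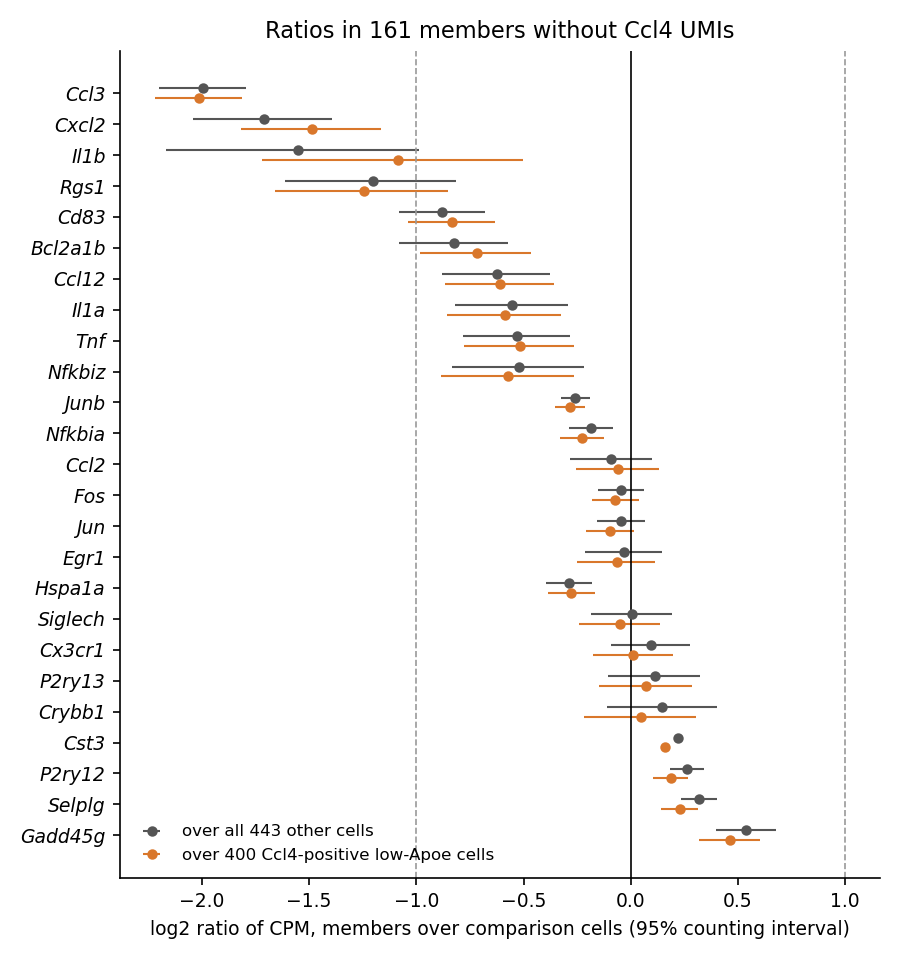
log2 ratio of pooled CPM for 25 named genes, members over all 443 other cells (grey) and over the 400 Ccl4-positive low-Apoe cells (orange), with 95% counting intervals. Dashed lines mark 2-fold. Ccl3 at -1.99 and Cxcl2 at -1.71 lie left of the line, Fos, Jun and Egr1 on 0, and Cst3, P2ry12, Selplg and Gadd45g to the right.

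Some of the lowest ratios came from a handful of the comparison cells. The MHC class II genes H2-Eb1 (log2 -5.05), H2-Aa (-4.42), H2-Ab1 (-3.10) and the invariant chain Cd74 (-2.87), which load and present peptides to CD4 T cells, had 2, 3, 13 and 72 UMIs in the members. In the others, the 10 highest cells held 94.8% of H2-Eb1 and 76.8% of Cd74 UMIs. At least 20 UMIs of these 4 genes together were found in 9 others, 4 of them low in Apoe, and in 0 members. Without those cells, a setting added after the values were seen, Cd74 was at -0.85 against the others and at -0.65 against the Ccl4-positive cells. Osteopontin (Spp1) was likewise at -2.75 (-3.98 to -1.74), with 8 UMIs in members and 83.2% of the others' 173 UMIs in 10 cells. The acute phase gene Saa3 (-5.17) had 93.1% of its UMIs in 10 of the others. Rgs1, a regulator of G protein signalling downstream of chemokine receptors, was more evenly spread (36 members and 156 others with a UMI) and was at log2 -1.20 (-1.61 to -0.81).

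No gene was 2-fold higher. Gadd45g, a growth arrest and stress gene, was 1277 against 878.4 CPM (log2 0.54, 0.40 to 0.68), with UMIs in 122 of 161 members, and ran to 93.8 UMIs per 10000 in members and 68.0 in others. Oard1, an enzyme that removes ADP-ribose from proteins (110.3 against 55.4 CPM, log2 0.99, 0.47 to 1.51, in 45 members), and Commd7, a COMM domain protein linked to NF-κB control (199.4 against 100.2 CPM, log2 0.99, 0.61 to 1.37), had the highest ratios. For Commd7, 10 cells held 62.8% of the member UMIs. Exosc2, an RNA exosome subunit (0.98), had 84.3% of its member UMIs in 10 cells, and all Rmi2 UMIs of the members (0.89) came from 10 cells. Scoc (0.61, in 111 members), a Golgi coiled-coil protein, and Tubb2a (0.46, in 92 members), a β-tubulin, were more widely spread.

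The remaining lists had medians nearer 0 or held few measured genes. Median log2 ratios against the others were 0.03 for microglial transcription factors, -0.12 for TGF-β signalling, -0.15 for damage-associated genes, -0.12 for MHC class I, -0.01 for complement and phagocytic receptors, 0.11 for purinergic signalling, -0.02 for channels and G protein regulators, -0.03 for lysosomal genes, -0.06 for glycolysis, 0.08 for oxidative phosphorylation, -0.08 for ribosomal proteins and 0.02 for the cytoskeleton. Interferon response (-0.21), lipid handling (-0.51) and cell cycle genes (-0.20) had 4 measured members each, and cholesterol synthesis (-0.04) and sex-linked genes (0.09) 2. Intervals lay below 0 for 7 of 14 measured damage-associated genes, with 12 ratios below 0, and for 12 of 34 ribosomal protein genes, with 32 ratios below 0, beside 6.72% of all genes. Against the Ccl4-positive low-Apoe cells fewer did, 4 of 13 damage-associated genes (median -0.06) and 4 of 34 ribosomal protein genes (median -0.05). The share of all genes there was 5.94%. Single genes stood out within some of these: the TGF-β-induced repressor Tgif1 was at -0.56 (-0.83 to -0.29), the LPS co-receptor Cd14 at -0.73 (-0.96 to -0.51), the anaphylatoxin receptor C3ar1 at -0.67 (-0.98 to -0.38), and the identity factors Maf at 0.42 (0.12 to 0.72) and Fli1 at 0.62 (0.12 to 1.10). MHC class II had a median of -2.87 over 7 genes, which was -0.14 over 5 measured against the Ccl4-positive low-Apoe cells.

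Members were then set beside Ccl4-positive low-Apoe cells split by their Ccl4 share: under 0.1% (125 cells with 1 to 5 UMIs), 0.1 to under 1% (228 cells) and at least 1% (47 cells). Ccl3 was 460.2 CPM in members, 451.1 CPM under 0.1%, 1597 CPM from 0.1 to under 1% and 6663 CPM from 1%. The log2 ratio of members over cells under 0.1% was 0.03 (-0.26 to 0.32) for Ccl3, -0.08 (-0.35 to 0.19) for Cd83, 0.14 (-0.20 to 0.49) for Tnf, 0.02 (-0.33 to 0.37) for Il1a and 0.13 (-0.21 to 0.48) for Ccl12. These 5 intervals included 0. Among the other CC chemokines Ccl2 was higher in members than in the cells under 0.1% (0.34, 0.08 to 0.61) and Ccl9 lower (-0.50, -0.86 to -0.14). Each of the first 5 genes was lower in members than in the cells from 0.1 to under 1%, at -1.79, -0.93, -0.68, -0.76 and -0.79. For Junb the order was reversed at the low end, with 4670 CPM in members and 4213 CPM under 0.1% (log2 0.15, 0.06 to 0.24). From 0.1 to under 1% Junb was 6264 CPM. P2ry12 (3665, 3376, 3126 and 3280 CPM) and Cst3 (82698, 79461, 71535 and 72124 CPM) were highest in the members. The markers P2ry13 and Crybb1 were not. In members and in cells under 0.1%, P2ry13 was 513.2 and 551.9 CPM (log2 -0.10, -0.37 to 0.16). Crybb1 was 358.4 and 410.3 CPM (-0.20, -0.51 to 0.12).

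Members were also compared with the cells under 0.1% across all genes. Of 1203 genes measured over both, 4 were at least 2-fold lower in members: Ccl4 by rule, Cd74 and H2-Ab1 (where 2 of the 9 MHC class II cells lay), and Rgs1 (log2 -1.03, -1.50 to -0.56). Commd7 was at least 2-fold higher (1.02, 0.48 to 1.59). Of 88 named genes measured here, 15 had intervals above 0 and 7 below, beside 4.82% and 4.16% of all 1203. Below were Cd74, H2-Ab1, Rgs1, Ccl9, Rpl19, Cxcl2 (-0.75, -1.15 to -0.35) and Bcl2a1b (-0.45, -0.77 to -0.13). Among those above were Gadd45g (0.38, 0.20 to 0.57), Junb, Selplg, P2ry12 (0.12, 0.02 to 0.22), Cst3, Scoc and Rmi2. The number of measured genes depends on the size of the stratum, so counts of genes are not compared between strata.

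**Figure D3:**
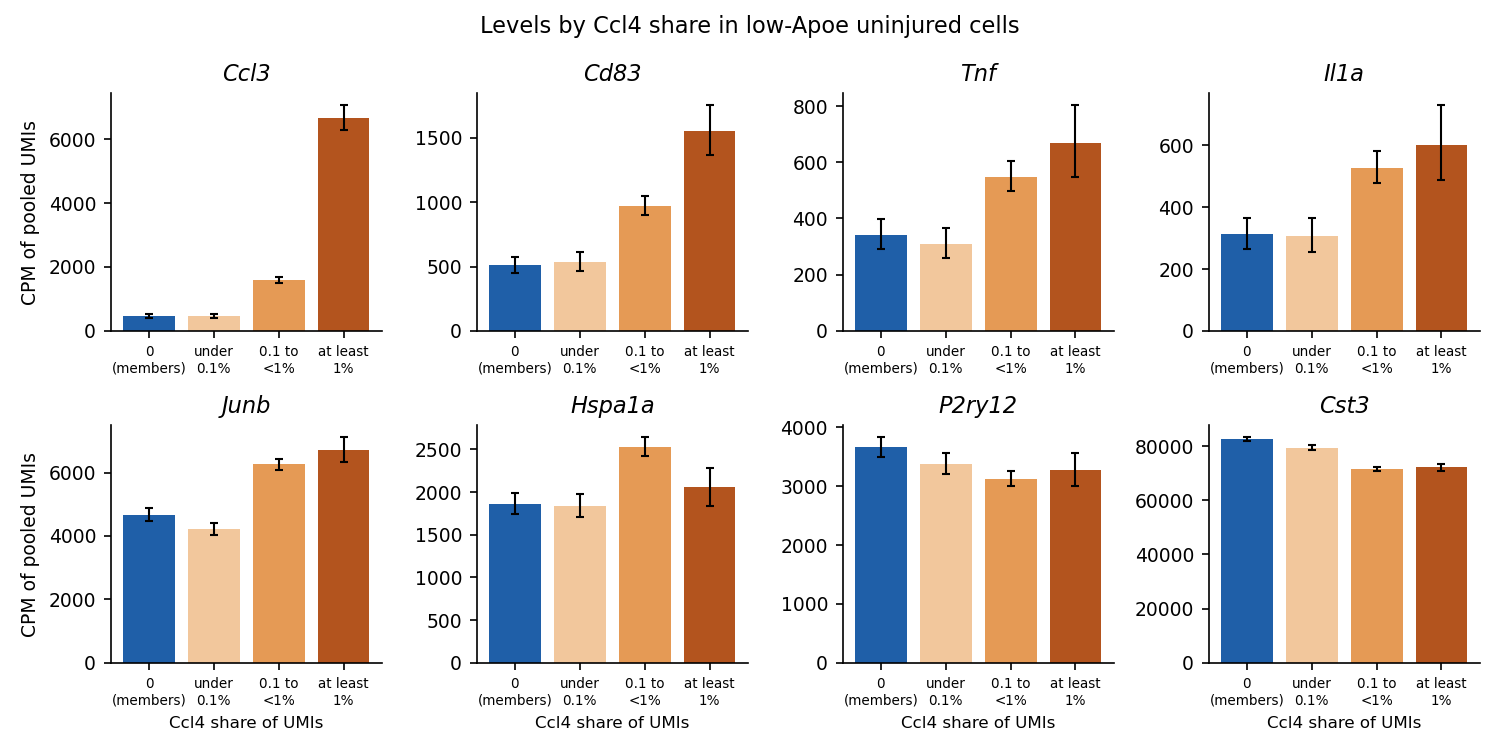
Pooled CPM (bars, linear axes from 0) with exact Poisson 95% intervals for 8 genes in the 161 members and in Ccl4-positive low-Apoe cells split by Ccl4 share of UMIs (125, 228 and 47 cells). Ccl3, Cd83, Tnf and Il1a show members level with the cells under 0.1% (460.2 and 451.1 CPM for Ccl3) and higher bars from 0.1% on.

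The genes most like Ccl4 by rank were sought over the 561 low-Apoe cells. Among 390 genes with at least 500 UMIs, Spearman's rho with Ccl4 (both as share of the cell's UMIs) was 0.55 for Ccl3, 0.32 for Cd83, 0.26 for Junb, 0.23 for the actin regulator Marcksl1 and for Cd74, and 0.19 to 0.21 for Tgif1, Il1a, Tnf, the antioxidant regulator Nfe2l2 and Plek. The median gene was at 0.00. The lowest values belonged to Selplg (-0.17), creatine kinase Ckb (-0.17), selenoprotein Sepp1 (-0.17), Scoc (-0.16), the protease Lgmn (-0.16), Cst3 (-0.15), Csf1r (-0.14), Scamp2, Ldhb and Sparc (each -0.13). These cells share 1 library and their counts share the depth of each cell, and all but that of Ccl3 are weak.

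Members also varied among themselves. With each member thinned to 1500 UMIs, the variance over the mean across cells (Fano factor, 1 for pure counting noise) had a median of 1.15 over 654 genes and was above 2 for 50. Among the highest were Hspa1a (21.4), Cst3 (17.3), β-actin (Actb, 16.4), the cell surface protein Bsg (10.5), the nuclear RNA Malat1 (10.4), Junb (6.25), ferritin light chain Ftl1 (4.41), Apoe (4.18) and Ccl2 (3.88). Hspa1a ran from 0 through 5.65 to 634.0 UMIs per 10000, with 114 members positive and 40.3% of its UMIs in 10 cells. Junb ran from 0 through 40.1 to 235.6 and was at 0 in 11 members. Across the 161 members, Junb and Ftl1 were the closest pair of the genes just named (rho 0.55), and Cst3 and Malat1 the most opposed (-0.52).

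Within the members, the 71 cells with a Ccl3 UMI and the 90 without were also compared, a split added after the values were seen. Median depth was 3144 and 2727 UMIs. Pooled log2 ratios, Ccl3-positive over Ccl3-negative members, were 0.81 (0.34 to 1.29) for Tnf, 0.63 (0.29 to 0.97) for Ccl2, 0.59 (0.21 to 0.97) for Cd83, 0.47 (0.15 to 0.79) for Egr1, 0.24 (0.12 to 0.36) for Junb and 0.23 (0.04 to 0.42) for Fos. They were -0.21 (-0.23 to -0.18) for Cst3, -0.20 (-0.34 to -0.05) for Selplg and -0.27 (-0.51 to -0.03) for Gadd45g. The median over 654 measured genes was -0.02. Jun (0.01, -0.18 to 0.21), Il1a (-0.28, -0.77 to 0.21) and Ccl9 (-0.26, -0.81 to 0.28) had intervals that included 0, and Hspa1a was lower with Ccl3 (-0.25, -0.45 to -0.05). By list, intervals lay above 0 for 5 of 11 measured immediate early genes, 2 of 4 CC chemokines other than Ccl3 and 1 of 7 NF-κB genes, and below 0 for none of them. Over all 654 genes 6.12% had intervals above 0 and 5.2% below, and of these genes none but Ccl3 itself differed 2-fold. Genes under 100 UMIs were not counted here and went both ways. Examples were Commd7 (1.20, 0.56 to 1.87), Rmi2 (1.05, 0.28 to 1.85), Ifi27l2a (-1.76, -3.35 to -0.42) and Lrp1 (-1.47, -2.83 to -0.27).

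**Figure D4:**
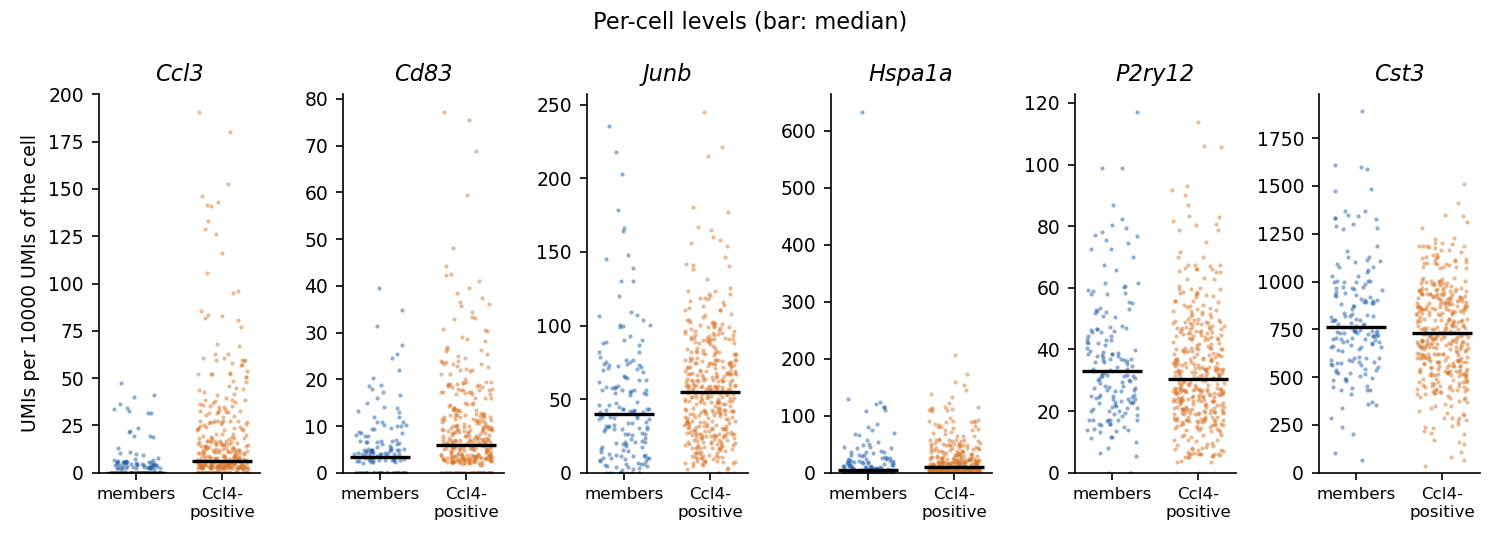
UMIs per 10000 UMIs of the cell for 6 genes, 1 point per cell, in the 161 members (blue) and the 400 Ccl4-positive low-Apoe cells (orange), with the median as a bar. Ccl3 and Cd83 reach higher in the Ccl4-positive cells (190.9 for Ccl3 against 47.2 in members), 1 member stands far above for Hspa1a (634.0), and P2ry12 and Cst3 overlap over nearly the whole range.

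The injured library allowed the same split in cells that the rule did not use. Of its 567 cells with at least 1500 UMIs, 57 had 0 Ccl4 UMIs and 30 met the whole rule. The 57 were compared with the 510 Ccl4-positive injured cells without the Apoe limit, as Apoe was high there. Their median depth was 3353 against 4660 UMIs, and ribosomal protein UMIs were 17.7% against 13.7%. Of 3291 measured genes 275 were at least 2-fold lower in the cells without Ccl4 (8.36%) and 41 at least 2-fold higher (1.25%), with a median over all genes of -0.08. Scaling by TMM would shift these ratios by -0.18. Cells bearing markers of other types were more frequent on this split, 12 of the 57 (21.1%) and 59 of the 510 (11.6%), against 10 of 161 members. Of the 57, 6 were marked by border-associated macrophage genes (414.7 CPM in sum, against 177.4 CPM in the Ccl4-positive cells) and 5 by oligodendrocyte precursor genes (192.5 against 21.9 CPM), and astrocyte markers summed to 128.4 against 41.7 CPM. Values without all such cells (45 and 451 cells), added after the data were seen, are given beside the results below.

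Chemokine and NF-κB genes were lower on this split too. Ccl3 was 251.8 CPM without Ccl4 and 2701 CPM with it (log2 -3.42, -3.85 to -3.03), seen in 45.6% and 90.0% of cells (28.0% and 72.8% at 1500 UMIs). Ccl2, level in the uninjured split, was 330.8 against 1424 CPM (-2.11, -2.48 to -1.76). Tnf was at -1.83 (-2.42 to -1.29), Ccl12 at -1.72 (-2.10 to -1.37), Cxcl2 at -1.66 (-1.88 to -1.45; -3.77, -4.29 to -3.29, without cells bearing other markers), Nfkbiz at -1.46 (-1.93 to -1.03) and Cd83 at -1.38 (-1.71 to -1.06). All 18 measured NF-κB genes had ratios below 0 (median -0.84, 13 intervals below 0), and so had all 7 CC chemokines (median -2.11), where 11.1% of all genes had intervals below 0 and 8.9% above. Without cells bearing other markers, 15 of 18 NF-κB genes were below 0 (median -0.71, 10 intervals below 0), the CC chemokine median was -1.95 and Ccl3 was at -3.33 (-3.79 to -2.90). Cst3 was higher without Ccl4 (26585 against 16775 CPM, 0.66, 0.62 to 0.70), and at 0.91 without cells bearing other markers. P2ry12 was at 0.26 (0.04 to 0.47), at 0.08 (-0.14 to 0.29) with TMM scaling and at 0.47 (0.25 to 0.68) without those cells, so whether its interval included 0 depended on the setting, and P2ry13 (-0.50, -1.22 to 0.15) did not differ beyond counting error. With the Apoe limit applied to both injured groups (30 and 209 cells), P2ry12 was 1398 against 1395 CPM (0.00, -0.26 to 0.26), Cst3 32511 against 27534 CPM and Ccl3 291.6 against 2414 CPM. The homeostatic list as a whole had a median of -0.04, with 8 intervals above 0 and 5 below, and of 0.23, with 9 above and 2 below, without cells bearing other markers.

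Among 117 named genes measured on both splits, 41 had intervals below 0 for members over Ccl4-positive low-Apoe cells, and 32 of those were also below 0 in the injured library, 1 was above. Over all measured genes the share below 0 was 5.94% in the uninjured comparison and 11.1% in the injured one. Of 23 with intervals above 0 in the uninjured library (4.33% of all genes), 9 were above and 2 below in the injured one (8.9% and 11.1% of all genes). The genes were named partly for their ratio in the uninjured library, and the differences between libraries were not tested.

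**Figure D5:**
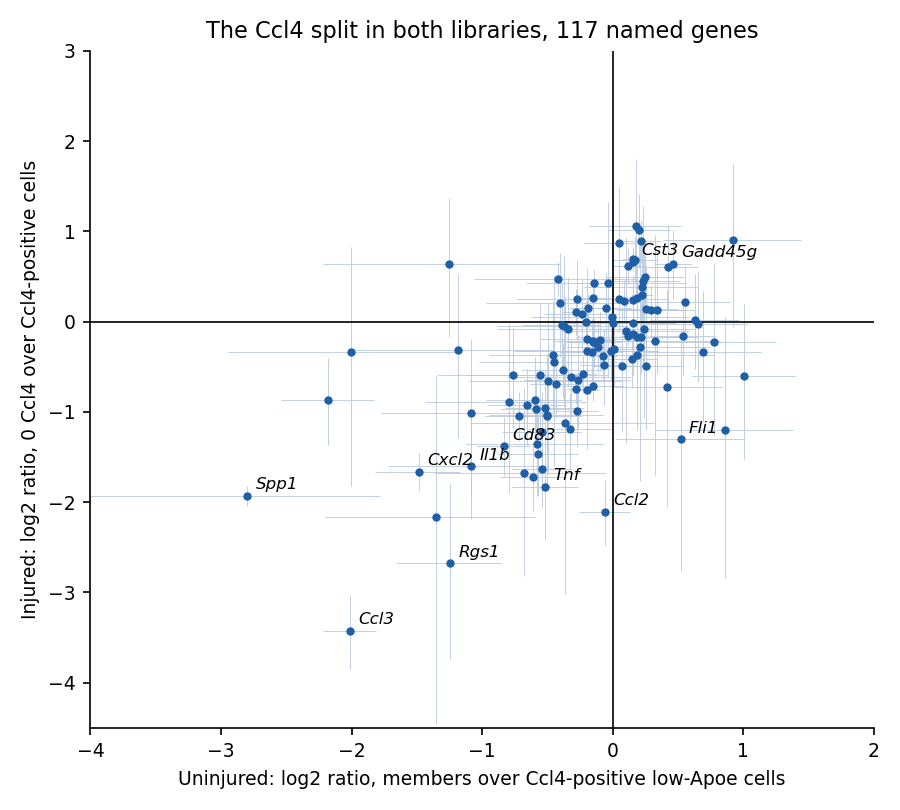
log2 ratio of cells at 0 Ccl4 over Ccl4-positive cells in the uninjured library (horizontal, both groups low in Apoe) and in the injured library (vertical) for 117 named genes, with 95% counting intervals. Ccl3 (-2.01 and -3.42) lies lowest, Ccl2 (-0.06 and -2.11) on the vertical axis, and Fli1 (0.52 and -1.30) on opposite sides of 0.

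The 57 injured cells at 0 Ccl4 were then set beside the members. Of 910 genes measured over the 57 injured cells at 0 Ccl4 and the 161 members, 118 were 2-fold or more below the members in the injured cells (13%) and 38 were 2-fold or more above (4.18%). Spp1 was 3436 against 17.0 CPM (log2 7.66, 6.68 to 8.88), Apoe, which the rule had limited in members, was at 5.08, the interferon-induced Ifi27l2a at 4.43 and Ifitm3 at 2.79, and the tetraspanin Cd63 at 1.75. All 4 markers were lower, P2ry12 at 987.4 against 3665 CPM (-1.89, -2.11 to -1.68), P2ry13 at -2.38, Cst3 at -1.64 and Crybb1 at -1.60. Ccl3 was lower (-0.87, -1.34 to -0.42), Cd83 (-0.33, -0.71 to 0.04), Il1a (0.06, -0.38 to 0.49) and Ccl12 (-0.05, -0.49 to 0.37) did not differ beyond counting error, and Cxcl2 was at 2.29 (1.92 to 2.67). Markers of border-associated macrophages and oligodendrocyte precursors stood out in 6 and 5 of the 57 injured cells and in 0 members. Without cells bearing markers of other types (45 and 151 cells), Cxcl2 was at 0.18 (-0.43 to 0.76), Spp1 at 6.89, Apoe at 4.47, P2ry12 at -1.56 (-1.79 to -1.35), P2ry13 at -1.99, Cst3 at -1.29 and Crybb1 at -1.12 (-1.80 to -0.49). Library, condition and animals cannot be told apart here: Xist, the transcript of the inactive X chromosome, had 948 UMIs in injured cells of at least 1500 UMIs and 8 in uninjured ones.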

How the data were processed

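The authors deposited 1 matrix of raw UMI counts for each library, with 27998 genes. STAR, Cell Ranger 2.0.1 and Seurat 2.1.0 were used, per the submitters' processing notes. What each was used for, and which annotation, was not given in the sources used here. A barcode was kept if it had 200 genes or more and mitochondrial UMIs of 10% or less, which removed 10 uninjured and 3 injured barcodes by the second limit. No doublet caller was run, and scatter gates excluded doublets per the labels' protocols. The libraries shared 0 cell barcodes. The kept cells held 2093084 and 3095511 UMIs.

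UMIs were summed over the cells of a group and scaled to CPM (Python 3.11.15, numpy 2.4.6, scipy 1.17.1, pandas 2.3.3). Genes reaching 100 UMIs in the 2 groups together were called measured, and were counted as higher or lower at 2-fold. A gene with 0 UMIs in a group was set to a floor of 3 counts. Ratios have exact Clopper-Pearson 95% intervals, levels exact Poisson and shares exact Clopper-Pearson ones, all for counting error only. No p-value was computed, since there was 1 library per group. Thinning to 1500 UMIs was exact for shares and a single seeded draw for Fano factors. The ratio and interval functions were tested on simulated data. Alternative scalings used edgeR 4.0.16 (TMM) and DESeq2 1.42.0 (size factors) in R 4.3.3, and figures matplotlib 3.10.9.

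Named genes were the 12 highest and 12 lowest by the interval bound nearest 0 against each comparison group (without mitochondrial, haemoglobin and ribosomal protein genes, or those with Rik and numbered Gm names), up to 4 from each of 24 lists, 22 fixed genes, and the 10 most and 10 least like Ccl4. Members, lists and genes were chosen with earlier results of these data known. Itgam, Clec7a and tdTomato were not analysed here, and 1 variable gene is not reported here.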

Additional observations from a re-analysis of the deposited data

Results flagged for a closer look

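For 3 named genes the cells at 0 Ccl4 and the Ccl4-positive cells stood in opposite order in the 2 libraries, with intervals on opposite sides of 0. Fli1, an ETS family transcription factor, had a log2 ratio of 0.52 in the uninjured library (members over Ccl4-positive low-Apoe cells) and -1.30 in the injured one. Lgmn, the lysosomal protease legumain, was at 0.12 and -0.16. Rps24, a protein of the small ribosomal subunit, was at -0.15 and 0.26, beside a ribosomal protein share that was 11.8% in members and 17.7% in injured cells at 0 Ccl4. With TMM scaling Rps24 was at 0.08 (-0.08 to 0.23) in the injured library, an interval that included 0. Fli1 (-1.48, -2.94 to -0.33) and Lgmn (-0.34, -0.44 to -0.25) stayed below 0 in that library with TMM scaling. A setting added after the data were seen left out cells bearing markers of other types. In the injured library Lgmn was then at 0.06 (-0.04 to 0.16), no longer in opposite order. Fli1, with 5 UMIs in the cells at 0 Ccl4, was at -1.18 (-2.82 to 0.07). Its order was still opposite, but the interval included 0. Rps24 stayed above 0 (0.32, 0.15 to 0.49). The differences between libraries were not tested, and the injured split above carried no Apoe limit. With that limit on both injured groups, Rps24 was at 0.19 (-0.04 to 0.41), an interval that included 0. Lgmn was at -0.31 (-0.45 to -0.17). Leaving out cells bearing other markers as well, Rps24 was at 0.37 (0.12 to 0.60) and Lgmn at -0.01 (-0.15 to 0.13).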

How the results depend on the processing

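Of 2870 values of named genes under the alternatives, 2791 stayed inside their own counting interval and 78 moved outside it. The last, from a gene at least 2-fold apart, changed sign: Ccl3 against only the cells with Ccl4 under 0.1% was at 0.029. Sign changes of smaller ratios were not counted apart. Against those same cells Junb (0.15) and Ccl2 (0.34), among others, changed sign too. The number of genes at least 2-fold lower than the others (20) was 10 in cells of 1500 to 4000 UMIs, 69 with a minimum of 50 UMIs, 8 with 300 and 711 with none, and 93 at 1.5-fold. The number higher (0) was 3 as a mean over cells, 2 in cells of 1500 to 4000 UMIs, 7 with a minimum of 50 UMIs, 3049 with none, 2 with a mitochondrial limit of 5% and 38 at 1.5-fold. Against the Ccl4-positive low-Apoe cells, 14 lower genes became 7 in cells of 1500 to 4000 UMIs, 51 with a minimum of 50 UMIs, 5 with 300, 711 with none, 4 against cells with Ccl4 under 0.1% and 82 at 1.5-fold. The 1 higher gene became 0 with TMM factors, DESeq2 size factors, the CC chemokines, Ccl4 and Apoe left out of the total, a minimum of 300 UMIs, or without cells bearing markers of other types, 3 as a mean over cells, 6 with a minimum of 50 UMIs, 2869 with none and 29 at 1.5-fold. Without a minimum most such genes have few UMIs, so those counts carry little information. The MHC class II median (-2.87) was -0.26 in cells of 1500 to 4000 UMIs, -0.15 with a minimum of 300 UMIs, -0.78 with none, -0.17 without cells bearing markers of other types and -0.14 without the MHC class II cells. The 161 members were 101 at a minimum of 2500 UMIs. In the injured library the whole rule gave 111 lower and 9 higher genes of 1428 measured, in place of 275 and 41 of 3291. TMM factors gave 21 higher. Without cells bearing markers of other types, 118 of 910 measured genes lower in injured cells than in members became 78 of 811. Unthinned, Ccl3 was seen in 44.1% of members and 74.3% of others. Medians of the CC chemokine, cytokine, NF-κB, immediate early, homeostatic and ribosomal protein lists against the others stayed within their counting bounds under each alternative run; the cause of the other movements was not tested. The settings with cells under 0.1% Ccl4, without MHC class II cells and, for the injured library, with TMM factors or without cells bearing markers of other types were chosen after seeing the data. No paired analysis was possible because there was 1 library per group. One UMI in a member of median depth is 341.5 CPM for any gene.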

Other observations

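Cells at 0 Ccl4 that the limits left out were few. Among uninjured cells with at least 1500 UMIs, 6 had 0 Ccl4 and at least 1% Apoe, with a median depth of 4155.5 UMIs and a median Apoe share of 1.80%. Below 1500 UMIs, 31 of 81 low-Apoe cells were at 0 Ccl4 (38.3%, 27.7 to 49.7%). That interval overlaps the 45.3% found between 1500 and 2000 UMIs.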
